A study of Homo sapiens with 15 samples.

Results

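Chromatin loops that start at 5 prostate long non-coding RNA (lncRNA) genes, PCA3, PCGEM1, DRAIC, ARLNC1 and SCHLAP1, were followed through androgen treatment of LNCaP cells. LNCaP is an established prostate cancer cell line that grows in response to androgen. A loop was given to a gene where at least 1 bp of one of its anchors (1 kb each) lay within 2.5 kb of any annotated transcript start of that gene. This rule, which uses positions only, gave 377 of the 505995 different loops of the series (0.0745%). PCA3 had 42 loops, PCGEM1 6, DRAIC 204, ARLNC1 52 and SCHLAP1 73, and no loop was shared between any of them.

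The loops came from HiChIP, in which DNA ends that lie close together in fixed nuclei are joined, fragments carrying a chosen histone mark are pulled down, and the joined ends are sequenced as read pairs. All cells were kept for 3 days in charcoal-stripped serum, which is depleted of androgens, and then received 10 nM of the androgen dihydrotestosterone (DHT), for periods of 30 m and 4 h and of 16 h and 72 h, or the ethanol vehicle (0 m). Each time point has 2 labelled samples for H3K27ac, a mark of active promoters and enhancers, and 1 for H3K4me3, a mark of promoters, which makes 15 samples. The authors deposited 1 contact value per loop, mark and time point, after TMM scaling (trimmed mean of M values) across the times of each mark. No value has a replicate error, no test between conditions was possible, and it is not stated whether both H3K27ac samples entered a value.

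The deposited values were whole multiples of the worth of 1 read pair in each table, so read pairs could be counted. They numbered 2475168 to 4308555 per H3K27ac table and 2153262 to 10675614 per H3K4me3 table, counted once per loop. The intervals given below are exact 95% intervals from these counts, and counting error is all that they cover. A value is said to have risen or fallen where the interval of its change left out 0. All changes share the 0 m table of their mark, which for H3K27ac was the shallowest. Runs of 5 contact values go from 0 m to 72 h, and runs of 4 changes from 30 m to 72 h. Contact is compared within a mark, never between marks. The prostate luminal genes KLK3, KLK2 and TMPRSS2 had between 17 and 97 loops each, while NEUROD1, a neural factor, had 0, PTPRC of leukocytes and GFAP of glia had 2 each, and CD3E of T cells had 6. The summed contact of all loops itself changed from 0 m on the log2 scale, by 0.09, 0.07, 0.25 and 0.17 for H3K27ac and by 0.02, 0.22, 0.14 and -0.13 for H3K4me3. The changes of the 5 genes are read against these shifts.

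Long non-coding RNAs are transcribed by RNA polymerase II and processed like messenger RNA but are not translated. Their promoters can touch distant enhancers and the promoters of coding genes, and loops make such contacts visible. Several lncRNAs of the prostate lineage are under the control of androgen. PCA3 is the RNA measured in a urine test for prostate cancer and lies within an intron of PRUNE2, on the opposite strand. PCGEM1 is a prostate-specific transcript. DRAIC is named for its restraint of cell invasion and migration, ARLNC1 is induced by androgen, and SCHLAP1 is found in aggressive tumours and binds the SWI/SNF chromatin remodelling complex.

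The genes differ in where they can start. In hg19, PCA3 (ENSG00000225937.3_8) lies on the plus strand at chr9:79306896-79478223, with 16 annotated starts in 5 groups, where starts within 5 kb of each other form a group. PCGEM1 (ENSG00000227418.6_7) lies on the plus strand at chr2:193614571-193641625, with 2 starts in 1 group. DRAIC (ENSG00000245750.11_11) lies on the plus strand at chr15:69755260-70135459, with 69 starts in 15 groups. ARLNC1 (ENSG00000260896.6_10) lies on the minus strand at chr16:80859971-80926579, with 36 starts in 3 groups. SCHLAP1 (ENSG00000281131.1_4) lies on the plus strand at chr2:181556831-181781666 and has a single start. The number of loops therefore reflects the number of annotated starts as well as contact at each.

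RefSeq promoter sequences (250 bases before to 50 after a start) were given for PCA3, PCGEM1 and DRAIC, each with 1 exact match in GRCh37, and none is given here for ARLNC1 and SCHLAP1. They are shown because loops were given to these genes by nearness to such starts, although a window need not lie inside an anchor. Capitals mark matches to AGAACA or TGTTCT, the hexamers of the androgen response element, and to TGTTTAC or TGTTTGC, letters bound by forkhead factors, on both strands. The PCGEM1 window lies at chr2:193614321-193614620, the PCA3 window at chr9:79379102-79379401 and the DRAIC window at chr15:69853809-69854108, all on the plus strand.
PCGEM1 promoter: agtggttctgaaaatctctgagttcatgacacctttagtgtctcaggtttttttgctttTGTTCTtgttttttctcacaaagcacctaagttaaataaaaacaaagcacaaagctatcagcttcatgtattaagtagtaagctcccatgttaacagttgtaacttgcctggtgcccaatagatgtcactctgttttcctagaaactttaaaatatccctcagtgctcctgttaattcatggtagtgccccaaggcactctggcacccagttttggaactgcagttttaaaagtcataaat
PCA3 promoter: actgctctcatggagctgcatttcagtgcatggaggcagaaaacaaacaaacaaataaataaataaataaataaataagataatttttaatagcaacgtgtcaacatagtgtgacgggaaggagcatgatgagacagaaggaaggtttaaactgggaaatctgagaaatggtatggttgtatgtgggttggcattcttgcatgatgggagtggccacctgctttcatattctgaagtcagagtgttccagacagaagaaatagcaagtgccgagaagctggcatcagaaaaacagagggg
DRAIC promoter: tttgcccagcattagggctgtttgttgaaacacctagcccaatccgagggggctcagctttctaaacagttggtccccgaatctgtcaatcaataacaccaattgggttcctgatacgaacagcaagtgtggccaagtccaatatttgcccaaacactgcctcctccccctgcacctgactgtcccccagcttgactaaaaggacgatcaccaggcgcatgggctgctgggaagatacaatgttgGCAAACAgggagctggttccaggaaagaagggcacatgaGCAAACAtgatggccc

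The DRAIC window held 2 forkhead-type matches, the PCGEM1 window 1 hexamer, and the PCA3 window neither. Over all 35116 RefSeq promoter windows of this length, 7.17% held a forkhead-type match and 14.8% a hexamer. A fuller element, AGAACA and TGTTCT with 3 bases between them and at most 2 mismatches in the 12 fixed bases, was found in none of the 3 windows and in 1.41% of all windows. GC content was 38% for the PCGEM1 window, 40.7% for PCA3 and 52% for DRAIC.

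Element matches were also looked for in the bins (5 kb) of the 3 loops with most read pairs of each gene in each mark. Of 5 matches that lay inside a 1 kb anchor, 3 are shown, 1 for each gene that had any, with the hexamer positions in capitals. They were chosen after their loops' values were seen. The PCGEM1 stretch, at chr2:193612026-193612080, belongs to the anchor that carries all 6 PCGEM1 loops and has 1 mismatch. The DRAIC stretch at chr15:69887059-69887113, in an anchor of the strongest DRAIC loop, both of whose anchors lie at a DRAIC start, and the ARLNC1 stretch at chr16:80907487-80907541, on the gene side, have 2 mismatches each.
PCGEM1 anchor: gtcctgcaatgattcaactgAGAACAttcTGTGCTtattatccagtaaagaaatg
DRAIC anchor: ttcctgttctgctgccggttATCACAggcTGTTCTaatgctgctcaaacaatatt
ARLNC1 anchor: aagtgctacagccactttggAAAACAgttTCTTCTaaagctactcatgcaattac

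The far ends of these loops held such matches about as often as anchors in general. Of the 241 partner anchors of the 5 genes, 16 (6.64%) held the element, against 6.98% of all 210061 anchors. Forkhead-type matches were in 26.1% of the partner anchors and in 27.6% of all anchors. SCHLAP1 had the element in 7 of 73 partner anchors and PCGEM1 in 0 of 6. These letters are a description of the anchors, and binding was not measured.

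The 5 genes spanned a wide range of contact (plot of summed contact by time). By the mean over the 5 H3K27ac tables, DRAIC ranked 30th of 18702 annotated lncRNA genes with a summed contact of 365.0, ARLNC1 264th with 130.03, SCHLAP1 360th with 112.3, PCA3 730th with 80.0 and PCGEM1 7845th with 1.92. The median of the 11609 lncRNA genes with any loop was 5.91. In H3K4me3 the order was different. SCHLAP1 came first of the 5 with a mean of 104.6 (784th), then DRAIC with 87.8 (1105th), ARLNC1 with 24.9 (3213th), PCA3 with 15.6 (3861st) and PCGEM1 with 0.651 (9789th).

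**Figure D1:**
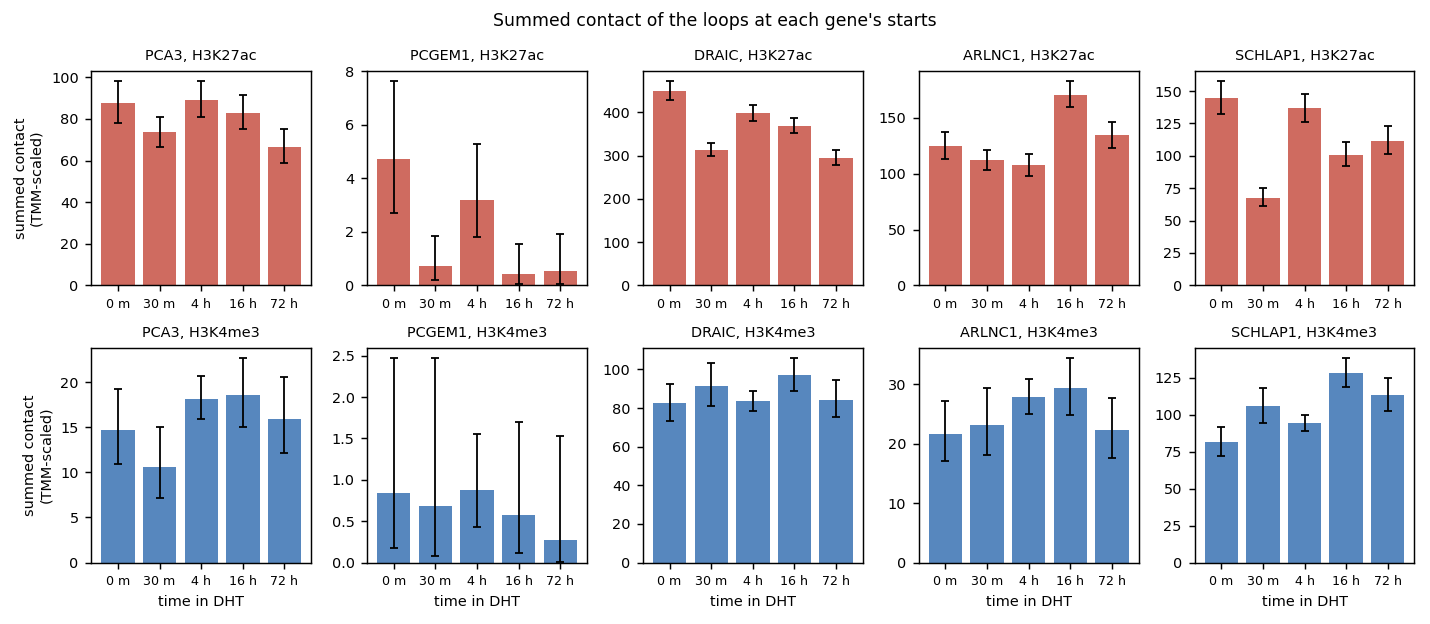
Summed TMM-scaled contact (vertical axes, from 0, a scale for each panel) of all loops at each gene's starts at the 5 time points of DHT, H3K27ac above and H3K4me3 below. Bars are the single deposited values summed over loops and black lines 95% counting intervals; H3K27ac contact of ARLNC1 peaked at 16 h, and that of SCHLAP1 was lowest at 30 m.

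The 5 genes also differed in the set in which their loops were called. Among the 73 SCHLAP1 loops, 23 were in the H3K27ac set only, 27 in the H3K4me3 set only and 23 in both. DRAIC had 168, 16 and 20 loops in these classes, ARLNC1 39, 7 and 6, PCA3 34, 7 and 1, and PCGEM1 4, 2 and 0. Most loops of each gene but SCHLAP1 were thus in the H3K27ac set only, for PCGEM1 by 4 loops against 2. The shares of these classes over all loops of the series are not given here, so the counts only describe the 5 genes.

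DRAIC, the gene with most loops, had less H3K27ac contact at every time after DHT than before it. Its summed H3K27ac contact was 449.6, 314.0, 398.5, 368.4 and 294.7. On the log2 scale the change from 0 m was -0.52 (95% interval -0.62 to -0.42), -0.17 (-0.27 to -0.08), -0.29 (-0.39 to -0.19) and -0.61 (-0.72 to -0.50). All loops together were higher at these times, so that relative to them DRAIC stood at -0.61, -0.24, -0.53 and -0.78.

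At 72 h DRAIC passed a 1.5-fold decrease, which 9.56% of all genes with at least 50 H3K27ac read pairs also passed. No other gene of the 4 that met this minimum did so, and PCGEM1 was below it. Of the 87 DRAIC loops with at least 20 H3K27ac read pairs, 35 were at least 2-fold lower at 72 h and 3 at least 2-fold higher. The share of all such loops that were lower was 15.5%, and the share that were higher 16.8%. At 30 m the counts were 27 lower, against a background of 13.5%, and 1 higher, against 14.1%.

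The decrease was uneven along the gene. The first group of DRAIC starts, between 69755260 and 69761053, went from 152.5 at 0 m to 110.4 at 16 h and 81.3 at 72 h, a change of -0.47 (-0.64 to -0.29) and -0.91 (-1.12 to -0.70). The group between 69840690 and 69857034, where the RefSeq promoter shown above lies, had 122.5 at 0 m and 123.6 at 16 h, a change of 0.01 (-0.17 to 0.20), and 96.8 at 72 h. The group near 69884468 went from 163.1 to 129.3 at 16 h (-0.33, -0.50 to -0.17). A further group near 69818144 went from 25.6 to 11.3 (-1.18, -1.70 to -0.67). At 16 h the intervals of the first and the middle group did not overlap.

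Short and long loops differed in the whole series, with H3K27ac changes at 16 h of 0.55 under 20 kb, 0.01 from 20 to 200 kb and -0.11 above, and DRAIC loops differed too. The 12 loops under 20 kb, which held 37.3% of its H3K27ac read pairs, changed by -0.18 (-0.35 to -0.01), -0.02 (-0.19 to 0.15), 0.04 (-0.13 to 0.21) and -0.35 (-0.54 to -0.16), so they too fell at 30 m and 72 h. The 192 longer loops changed by -0.71 (-0.84 to -0.59), -0.25 (-0.37 to -0.13), -0.47 (-0.60 to -0.35) and -0.75 (-0.89 to -0.61). The loop with most read pairs, between the neighbouring bins at 69882001 and 69887001, read 30.3, 21.4, 28.8, 37.2 and 31.6 from 0 m to 72 h. Another 5 kb loop, between 69852001 and 69857001, rose from 16.5 at 0 m to 29.9 at 16 h (0.86, 0.41 to 1.34). The pair between 69762001 and 69767001 was at 30.9 at 0 m, 29.9 at 16 h and 16.3 at 72 h.

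**Figure D2:**
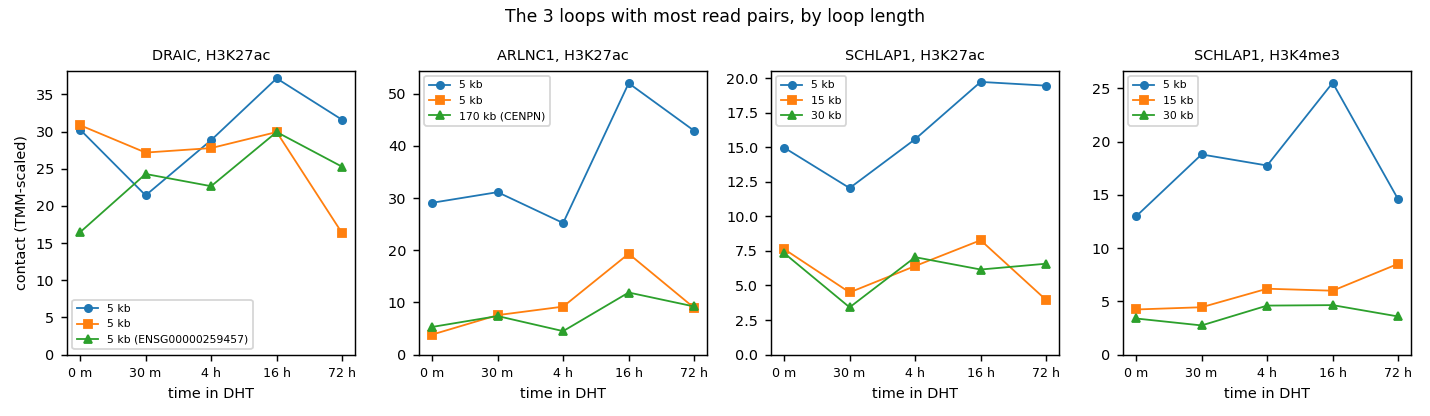
Contact (TMM-scaled, from 0) of the 3 loops with most read pairs at 5 time points, for DRAIC, ARLNC1 and SCHLAP1 in H3K27ac and SCHLAP1 in H3K4me3. Each line is a loop named by its length, with a gene that starts at its far anchor in parentheses; in ARLNC1 all 3 lines were highest at 16 h, the strongest at 52.0.

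The main distant partner of DRAIC was TLE3, a transcriptional corepressor of the Groucho family. They were joined by 10 loops of 290 to 625 kb, all but 1 of which ended at the same anchor, chr15:70387001-70388000. These loops took 8.16% of DRAIC's H3K27ac read pairs and 31.0% of its H3K4me3 read pairs. Their H3K27ac contact was 46.4, 21.8, 31.2, 30.1 and 22.4. It was lower than at 0 m at each later time, with changes of -1.09 (-1.45 to -0.74), -0.57 (-0.91 to -0.24), -0.62 (-0.96 to -0.29) and -1.05 (-1.45 to -0.66). The H3K4me3 contact of the same loops was 24.3, 28.7, 26.5, 29.4 and 26.1, and the interval of each change held 0 (at 16 h, 0.28, -0.11 to 0.68).

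RPLP1, which encodes a protein of the large ribosomal subunit, starts just upstream of DRAIC. It shared 4 loops with DRAIC, and 1 of these, between neighbouring bins, held 18.5% of DRAIC's H3K4me3 read pairs. That loop had H3K4me3 contact of 13.8, 13.7, 13.8, 26.5 and 13.5 and so was higher at 16 h alone (0.94, 0.46 to 1.44). In H3K27ac the 4 loops to RPLP1 read 13.2, 12.8, 12.8, 8.49 and 6.32 and fell at 72 h (-1.07, -1.85 to -0.32). Summed over all loops, DRAIC's H3K4me3 contact was 82.6, 91.5, 83.4, 97.0 and 84.4, with 0.23 at 16 h (0.02 to 0.44). Without the loop to RPLP1 the 16 h value was 0.04 (-0.20 to 0.28). Other partners were weaker: GLCE, an enzyme of heparan sulfate synthesis, had 79 read pairs in both marks, KIF23, a kinesin of cell division, had 70, and the lncRNA ENSG00000259503 had 139.

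ARLNC1 was the 1 gene of the 5 with a rise in H3K27ac contact, and the rise was at 16 h. The values were 125.2, 112.1, 107.5, 170.9 and 134.5. The changes from 0 m were -0.16 (-0.34 to 0.02), -0.22 (-0.41 to -0.03), 0.45 (0.28 to 0.62) and 0.10 (-0.09 to 0.29). Relative to all loops the 16 h value was 0.20 (0.03 to 0.37). The ARLNC1 change at 16 h was below the 1.5-fold increase that 17% of all genes passed at that time. An interval above 0 at 16 h was found for 28.5% of all genes with at least 50 H3K27ac read pairs.

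This rise lay in short loops, 3 of 4 of them within the gene. The 4 ARLNC1 loops under 20 kb, with 43.7% of the H3K27ac read pairs, changed by 0.98 at 16 h (0.70 to 1.27) and by 0.60 at 72 h (0.29 to 0.91). The 48 longer ones fell at 30 m (-0.39, -0.62 to -0.16) and 4 h (-0.42, -0.67 to -0.18) and stood at 0.08 at 16 h (-0.14 to 0.30). All loops of the series under 20 kb changed by 0.55, and the other loops of that length within 1 Mb of ARLNC1 by 0.56 (0.44 to 0.68), an interval below that of the gene. The loop between the bins at 80867001 and 80872001 alone held 27.8% of the read pairs and read 29.1, 31.1, 25.2, 52.0 and 42.9 (16 h: 0.84, 0.50 to 1.19). The loop between 80907001 and 80912001, whose first anchor holds the ARLNC1 stretch shown above, read 3.82, 7.56, 9.19, 19.3 and 8.95, a change of 2.34 at 16 h (1.49 to 3.30). The bins of the loop between 80867001 and 80872001, which also rose, held 0 matches to the element. By start group, the 2 starts between 80904417 and 80908982 went from 8.82 to 24.8 at 16 h (1.49, 0.91 to 2.12), and the 31 starts between 80864146 and 80885351 from 119.0 to 149.7 (0.33, 0.15 to 0.51). The outermost group, which holds the start of the gene record, had 1 loop with 6 read pairs at 0 m and 4 at 16 h.

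The distant partners of ARLNC1 were CENPN, a kinetochore protein gene, and CMC2, a gene for a mitochondrial protein, which start at the same anchor together with ENSG00000286221. Because 3 loops of 115 to 170 kb reach all of these starts, the partners cannot be told apart. The loops took 39.7% of ARLNC1's H3K4me3 read pairs and 8.12% of its H3K27ac read pairs. Their H3K27ac contact was 9.11, 10.4, 6.62, 13.6 and 12.9 (16 h: 0.58, -0.06 to 1.25), and their H3K4me3 contact 7.90, 8.20, 12.4, 12.2 and 4.95 (16 h: 0.62, -0.04 to 1.32). Neither 16 h interval left out 0, the 4 h change in H3K4me3 was 0.66 (0.07 to 1.29), an interval that holds 0 once the 0.22 of all loops is taken off, and the 170 kb loop alone rose in H3K27ac from 5.29 to 11.9 (1.17, 0.38 to 2.02).

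DYNLRB2, a dynein light chain gene, and DYNLRB2-AS1 were joined to ARLNC1 by the same 2 loops with 151 H3K27ac and 44 H3K4me3 read pairs. Their H3K27ac contact was 8.82, 6.66, 3.63, 7.43 and 8.42, with a fall at 4 h (-1.28, -2.23 to -0.37), and the other intervals in both marks held 0. In H3K4me3 the summed ARLNC1 contact was 21.7, 23.2, 27.9, 29.4 and 22.3, with 0.44 at 16 h (0.03 to 0.85) before and 0.30 (-0.10 to 0.72) after the change of all loops was taken off.

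SCHLAP1 had less H3K27ac contact at 3 of 4 times after DHT and more H3K4me3 contact at all 4. Its H3K27ac values were 144.6, 67.7, 136.7, 100.8 and 111.6. The changes were -1.10 (-1.29 to -0.90), -0.08 (-0.25 to 0.09), -0.52 (-0.70 to -0.33) and -0.37 (-0.56 to -0.18), so the 4 h table stood close to 0 m and the other times lay below it. Its H3K4me3 values were 81.5, 105.9, 94.2, 128.4 and 113.2. These changes were 0.38 (0.14 to 0.61), 0.21 (0.02 to 0.40), 0.66 (0.45 to 0.86) and 0.47 (0.25 to 0.70), and relative to all loops 0.36, -0.02, 0.52 and 0.60.

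SCHLAP1 was the 1 member of the 4 with enough read pairs to be at least 1.5-fold lower in H3K27ac at 30 m, as 6.82% of all genes were. It was also the 1 member at least 1.5-fold higher in H3K4me3 at 16 h, as 8.41% of all genes were. Among its 33 loops with at least 20 H3K27ac read pairs, 19 were at least 2-fold lower at 30 m (13.5% of all such loops) and 0 at least 2-fold higher (14.1%). Among its 48 loops with at least 20 H3K4me3 read pairs, 12 were at least 2-fold higher at 16 h (16.2% of all such loops) and 2 at least 2-fold lower (9.19%). The count higher at 72 h was 12 as well (11.4%), and whether these were the same loops was not counted.

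SCHLAP1 loops differed by length as loops of the whole series did. Its 3 loops under 20 kb changed in H3K27ac by -0.45 at 30 m (-0.86 to -0.03) and 0.22 at 16 h (-0.17 to 0.61), and its 70 longer loops by -1.30 (-1.53 to -1.07) and -0.76 (-0.97 to -0.55). Neighbouring loops under 20 kb changed by 0.20 at 16 h (0.09 to 0.31). In H3K4me3 at 16 h both classes were higher, with 0.85 (0.45 to 1.26) and 0.59 (0.35 to 0.82). The loop to the neighbouring bin, between 181557001 and 181562001, had H3K27ac contact of 14.99, 12.1, 15.6, 19.7 and 19.5 and H3K4me3 contact of 13.0, 18.8, 17.7, 25.5 and 14.6 (16 h in H3K4me3: 0.98, 0.48 to 1.49).

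SCHLAP1 seldom touched coding promoters. Loops to a coding start held 2.24% of its H3K27ac and 1.501% of its H3K4me3 read pairs. UBE2E3, a ubiquitin-conjugating enzyme gene, was its main gene partner, with 3 loops of 275 to 365 kb, 50 H3K27ac and 34 H3K4me3 read pairs. Of its 73 partner anchors 41 were intergenic, 27 intronic and 5 exonic.

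Over 6935 lncRNA genes with at least 50 read pairs in each mark, the median share of read pairs joined to a coding start was 35.8% in H3K27ac and 53.2% in H3K4me3. Loops with both anchors at starts of the lncRNA gene itself were not counted as joined. At or below the SCHLAP1 share lay 5.38% of these genes in H3K27ac and 3.75% in H3K4me3. The other genes had 12.1% (DRAIC), 20.5% (ARLNC1) and 10.0% (PCA3) in H3K27ac, each below that median. In H3K4me3 they had 58.3%, 70.3% and 50.2%, close to or above the median. The split between the marks was not tested.

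**Figure D3:**
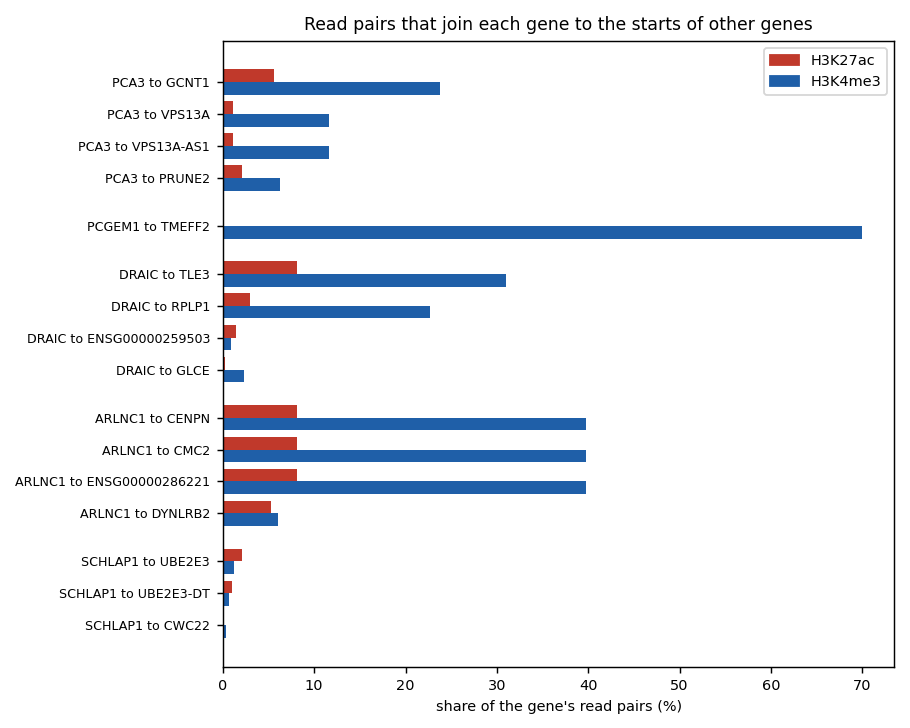
Share (%) of each gene's read pairs, summed over the 5 tables of a mark, in loops that end at a start of another gene, for up to 4 partner genes of each lncRNA gene. Loops with both anchors at starts of the lncRNA gene itself are left out. Red bars are H3K27ac and blue bars H3K4me3; CENPN, CMC2 and ENSG00000286221 share the same 3 loops and VPS13A and VPS13A-AS1 theirs, and the bar to TMEFF2 rests on 14 read pairs.

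PCA3 had lower H3K27ac contact at 30 m and 72 h. Its H3K27ac contact was 87.6, 73.6, 89.3, 83.0 and 66.6. The changes were -0.25 (-0.47 to -0.03), 0.03 (-0.19 to 0.25), -0.08 (-0.30 to 0.15) and -0.40 (-0.64 to -0.15). Relative to all loops the 16 h value was -0.32 (-0.55 to -0.10), so at 16 h whether PCA3 fell depended on the scaling. H3K4me3 contact was 14.7, 10.6, 18.1, 18.6 and 15.9, and every interval of its change held 0.

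The start groups of PCA3 differed at 72 h in H3K27ac. The group near 79379352, where the promoter shown above lies, went from 21.2 to 12.4 (-0.77, -1.34 to -0.22), and the single start at 79423497 from 22.9 to 13.4 (-0.77, -1.31 to -0.24). The group between 79348594 and 79351522 went from 22.3 to 16.3, with an interval that held 0 (-0.45, -0.96 to 0.05). The group between 79315096 and 79320008 had 19.98 at 0 m and 23.9 at 72 h (0.26, -0.21 to 0.74). The strongest loop, of 5 kb from 79417001 to 79422001, held 20.4% of the H3K27ac read pairs and read 17.3, 16.6, 20.3, 15.9 and 10.3.

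The gene partners of PCA3 took a larger share of its read pairs in H3K4me3 than in H3K27ac. GCNT1, which encodes a glycosyltransferase of O-glycan synthesis, had 6 loops of 235 to 275 kb with 23.8% of PCA3's H3K4me3 read pairs and 5.65% of its H3K27ac read pairs. VPS13A, a gene for a lipid transfer protein, and VPS13A-AS1 shared 3 loops with 11.6% and 1.07%, and RFK, the riboflavin kinase gene, had 8.58% and 1.19%. Loops to the host gene PRUNE2 with only 1 anchor at a PCA3 start numbered 2, with 6.22% and 2.09%. A further 5 kb loop, between 79312001 and 79317001, had both anchors at PCA3 starts and a PRUNE2 start at its far anchor. It is not counted in these shares and held 39 H3K4me3 read pairs (8.37%). Its H3K4me3 change at 16 h was 2.91 (0.13 to 8.34), an interval that holds 0 once the change of all loops is taken off. The H3K27ac contact with GCNT1 was 4.41, 4.50, 5.98, 4.03 and 3.42 and the H3K4me3 contact 2.26, 2.39, 4.75, 3.67 and 4.67, with both 16 h intervals holding 0 and a 4 h change in H3K4me3 of 1.08 (0.01 to 2.35), an interval that holds 0 once the 0.22 of all loops is taken off.

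PCGEM1 had few read pairs, and fewer in H3K27ac at 3 of 4 times after DHT. Its 6 loops, of 180 to 555 kb and all upstream, held 16, 4, 15, 2 and 2 H3K27ac read pairs. The contact was 4.70, 0.720, 3.205, 0.425 and 0.526. Its changes were -2.71 (-4.75 to -1.08), -0.55 (-1.67 to 0.56), -3.47 (-6.63 to -1.38) and -3.16 (-6.32 to -1.07), with wide intervals. In H3K4me3 the read pairs were 3, 2, 11, 3 and 1, which is too few to read a change. The loop to TMEFF2, a gene for a transmembrane protein abundant in prostate, spanned 555 kb and held 14 H3K4me3 read pairs over the 5 tables. It had 0 read pairs in H3K27ac, a count that allows up to 3.

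**Figure D4:**
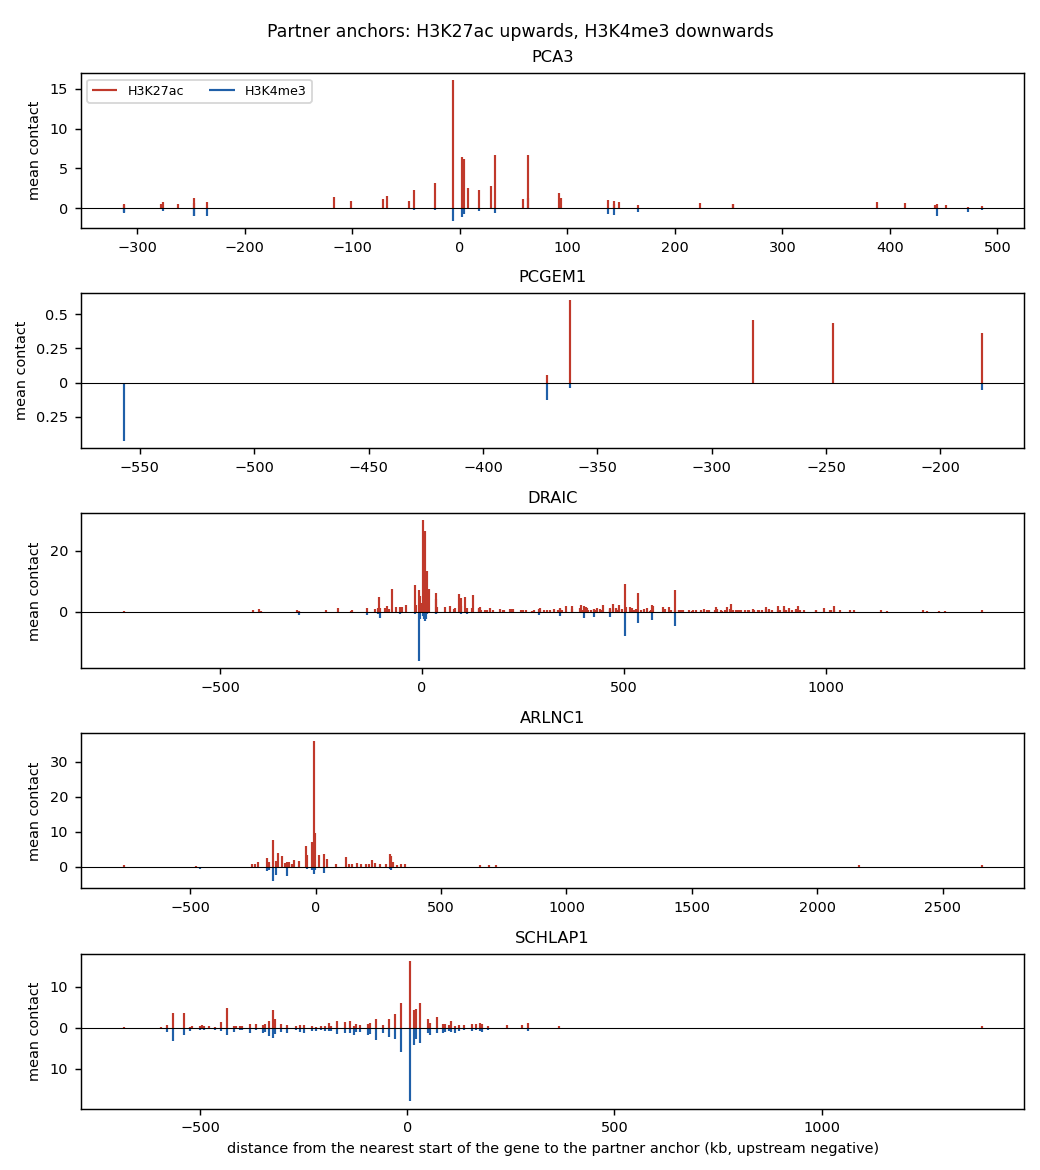
Mean contact over the 5 time points (vertical axes, TMM-scaled, a scale for each gene) of each loop against the distance in kb from the nearest start of the gene to the middle of the far anchor, upstream negative. Red lines upwards are H3K27ac and blue lines downwards H3K4me3; PCGEM1 loops lie upstream only, and the blue lines of DRAIC near 500 kb downstream end at TLE3.

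Counts past a fixed fold over all times put these changes beside those of other genes. Of the 4 genes with enough read pairs, 0 were at least 1.5-fold higher in H3K27ac at 30 m (16.1% of all genes tested), 4 h (7.06%), 16 h (17%) or 72 h (16.4%). At least 1.5-fold lower were 0 genes at 4 h (2.67%) and 16 h (12%), besides SCHLAP1 at 30 m and DRAIC at 72 h. In H3K4me3, 0 were higher at 30 m (4.7%), 4 h (15%) or 72 h (6.39%), and 0 were lower at any time (5.92%, 3.86%, 2.3% and 6.96%).

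Over the 168 loops of the 5 genes with at least 20 H3K27ac read pairs, 50, 24, 28 and 49 were at least 2-fold lower, where the shares of all such loops were 13.5%, 10.7%, 15.5% and 15.5%. At least 2-fold higher were 1, 12, 7 and 7, against 14.1%, 11.9%, 16.7% and 16.8%. The 50 and 49 loops are 29.8% and 29.2% of the 168, above the background, whereas the 28 at 16 h (16.7%) are near it. At 30 m they were mostly of DRAIC (27 of 87) and SCHLAP1 (19 of 33), with 2 of 20 for PCA3 and 2 of 28 for ARLNC1, both below the background. At 72 h DRAIC had 35, SCHLAP1 8, ARLNC1 4 and PCA3 2. Over 92 loops in H3K4me3, 14, 11, 19 and 14 were higher (background 14.4%, 16.7%, 16.2% and 11.4%) and 10, 7, 6 and 10 lower (14%, 6.11%, 9.19% and 15.8%). At 72 h 12 of the 14 higher loops were of SCHLAP1, out of its 48.

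Lower H3K27ac contact was also seen in other loops around SCHLAP1 and PCGEM1 and, at 30 m, around PCA3 and DRAIC (plot of changes from 0 m). Loops with both anchors within 1 Mb of the SCHLAP1 gene record that did not touch its start, 413 in number, changed by -0.71 (-0.78 to -0.63), 0.04 (-0.03 to 0.11), -0.32 (-0.39 to -0.25) and -0.36 (-0.43 to -0.28). Among those of 20 kb or more the 16 h change was -0.75 (-0.85 to -0.66), beside -0.76 for the SCHLAP1 loops of that length. At 30 m such loops changed by -1.01 (-1.11 to -0.91) and those of SCHLAP1 by -1.30, and the intervals overlapped, although over all lengths the SCHLAP1 interval at 30 m lay below that of its neighbours. In H3K4me3 at 16 h the surrounding loops changed by 0.41 (0.27 to 0.55), and this interval overlapped that of SCHLAP1. They also overlapped at 30 m (0.24, 0.08 to 0.40) and 72 h (0.35, 0.20 to 0.50). At 4 h the surrounding loops stood at 0.59 (0.47 to 0.72), above SCHLAP1 (0.21, 0.02 to 0.40) without overlap.

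Around PCGEM1, 164 such loops changed in H3K27ac by -1.43 (-1.60 to -1.26), 0.10 (-0.03 to 0.24), -1.06 (-1.23 to -0.89) and -1.52 (-1.72 to -1.32). In H3K4me3 they changed by 0.51 at 16 h (0.25 to 0.78). At 16 h the PCGEM1 interval lay below that of these loops, but it overlapped that of the neighbours of 20 kb or more (-1.67, -1.93 to -1.43), the length of all PCGEM1 loops. Both regions had lower H3K27ac and higher H3K4me3 contact at 16 h in loops that were not given to the lncRNA gene.

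Over all lengths DRAIC and its surroundings lay apart at all 4 times. Its 665 neighbouring loops changed in H3K27ac by -0.14 (-0.20 to -0.07), 0.02 (-0.04 to 0.09), 0.11 (0.04 to 0.17) and -0.05 (-0.12 to 0.02). These intervals did not overlap those of DRAIC at any of the 4 times. Of loops of 20 kb or more, the neighbours changed by -0.34 at 30 m (-0.42 to -0.25) and -0.44 at 72 h (-0.53 to -0.35) and those of DRAIC by -0.71 (-0.84 to -0.59) and -0.75 (-0.89 to -0.61), again without overlap. The long neighbours had -0.16 (-0.24 to -0.07) at 4 h and -0.29 (-0.38 to -0.20) at 16 h, and both intervals overlapped those of the long DRAIC loops. Neighbours under 20 kb changed by 0.13 (0.04 to 0.23), 0.27 (0.17 to 0.37), 0.58 (0.48 to 0.67) and 0.42 (0.32 to 0.52), above the short DRAIC loops at each time without overlap.

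The loops around ARLNC1 changed by 0.26 (0.18 to 0.33), 0.13 (0.05 to 0.21), 0.25 (0.17 to 0.33) and 0.20 (0.11 to 0.28) in H3K27ac. The ARLNC1 intervals lay below these at 30 m and 4 h and overlapped them at the later times. Neighbours of 20 kb or more stood at 0.12 (0.01 to 0.22) and -0.05 (-0.16 to 0.06) at the first 2 of these times, above the long ARLNC1 loops without overlap.

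The loops around PCA3 changed by -0.15 (-0.22 to -0.08), 0.01 (-0.07 to 0.08), 0.31 (0.24 to 0.38) and 0.01 (-0.07 to 0.08). The PCA3 intervals lay below these at 16 h and 72 h and overlapped them at 30 m and 4 h. At 20 kb or more the neighbours had -0.34, -0.10, -0.01 and -0.23 and the PCA3 loops -0.33, -0.13, -0.17 and -0.48, with overlap at every time. Under 20 kb the neighbours stood at 0.68 (0.58 to 0.78) at 16 h and 0.30 (0.18 to 0.41) at 72 h, above the 4 PCA3 loops of that length (0.07, -0.29 to 0.45, and -0.24, -0.66 to 0.17) without overlap, and at 30 m and 4 h the intervals overlapped.

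**Figure D5:**
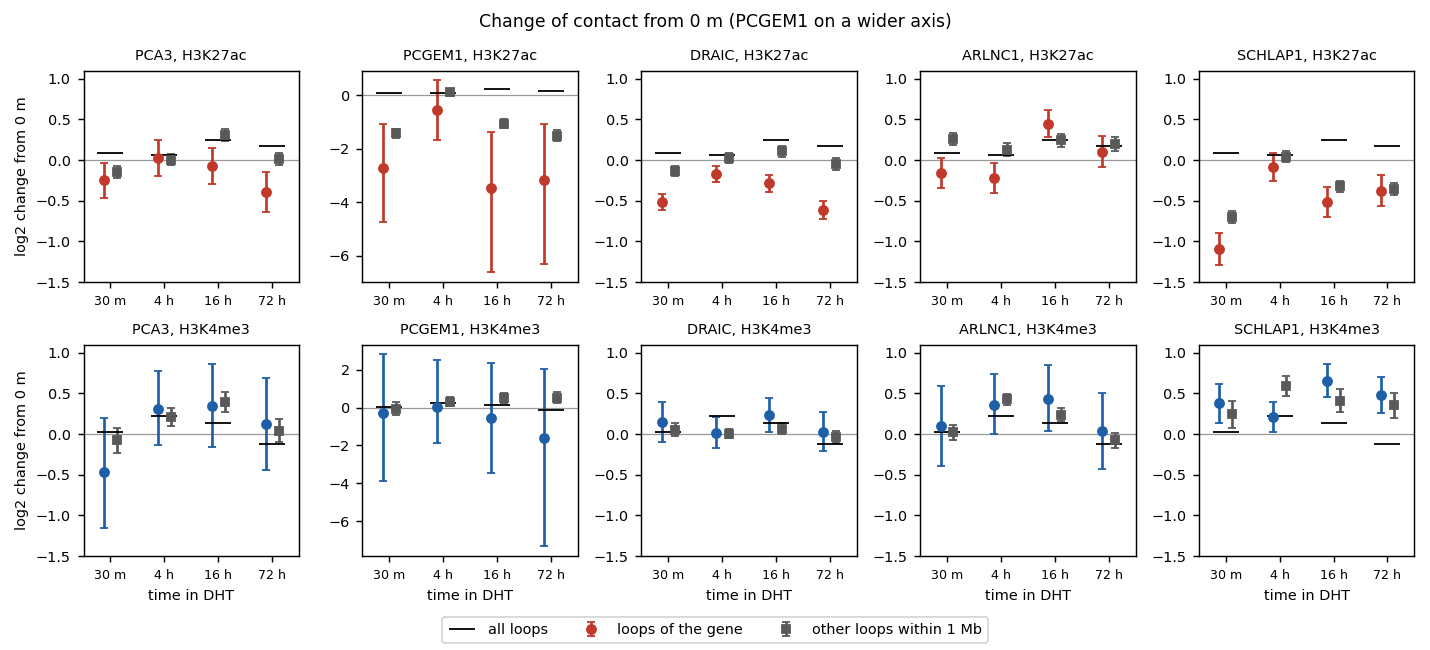
Log2 change of summed contact from 0 m at the 4 later time points, H3K27ac above and H3K4me3 below, for the loops of each gene (circles), for other loops within 1 Mb of it (grey squares) and for all loops (black dashes). Lines are 95% counting intervals and PCGEM1 has a wider axis; in H3K27ac DRAIC lay below its grey squares at every time, and at SCHLAP1 both symbols lay below 0 at 30 m, 16 h and 72 h.

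Base composition moved with these changes in the whole series. The mean GC content of a loop's bins had a median of 39.8% for SCHLAP1, 32.4% for PCGEM1, 41.1% for ARLNC1, 42.3% for PCA3 and 48.9% for DRAIC, against 45.0% for all loops. Over 5 GC classes of all loops, the H3K27ac change at 30 m ran from -0.50 in the class of lowest GC to 0.39 in the highest. The lowest class held 58 of 73 SCHLAP1 loops and 6 of 6 PCGEM1 loops. At 16 h the 5 classes stood at 0.04, 0.24, 0.33, 0.34 and 0.28. Within the lowest class the changes at 30 m were -0.23 under 20 kb, -0.67 from 20 to 200 kb and -0.97 above, and those at 16 h were 0.44, -0.29 and -0.54. In H3K4me3 the lowest class changed at 16 h by 0.30 over all lengths and by 0.37, 0.23 and 0.29 in these length classes, so its longer loops, like those of SCHLAP1, were lower in H3K27ac and higher in H3K4me3. The part of base composition in the changes of SCHLAP1 and PCGEM1 was not tested. DRAIC had 117 of 204 loops in the fourth class. In that class, loops from 20 to 200 kb changed by 0.21 at 30 m and 0.13 at 16 h and longer ones by 0.11 and 0.06, beside -0.71 and -0.47 for the DRAIC loops of 20 kb or more.

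Some genes elsewhere in the genome had similar courses. Likeness was measured as Pearson's r over the 10 tables, on log2 summed contact centred within each mark, among 16233 to 16246 genes per lncRNA gene with at least 200 read pairs in each mark and no shared loop. These 10 points share their libraries and their depth, so r is a description. The 3 highest values of so many genes are high by the way they were picked. The median r over the genes compared was -0.23 for DRAIC, 0.28 for ARLNC1, -0.26 for SCHLAP1 and 0.03 for PCA3. The genes most like DRAIC were VBP1, a prefoldin subunit gene (r = 0.973), ENSG00000288744 (0.953) and SLC30A4, a zinc transporter gene (0.952). Those most like ARLNC1 were TXNRD1, the thioredoxin reductase gene (0.960), TANC1 (0.949) and ANK3-DT (0.948). Those most like SCHLAP1 were ASAH1, the acid ceramidase gene (0.966), TBPL1 (0.966) and ENSG00000277342 (0.965). Those most like PCA3 were ENSG00000258380 (0.922), PHKG1 (0.922) and INSL6 (0.918). PCGEM1, with 59 read pairs in all, was left out.

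Other lncRNA genes of prostate and cancer gave a point of comparison. Of a list of 27, 26 were found in the annotation and 24 had loops, none shared with the 5 genes. In H3K27ac 19 had at least 50 read pairs, and at 16 h the interval of the change lay above 0 for 8 of them (28.5% of all genes tested) and below 0 for 1 (12.4%), with a median change of 0.08, beside 0.09 over all genes tested. The 1 below was H19, an imprinted fetal transcript (-1.14, -1.70 to -0.60). In H3K4me3 the interval lay above 0 for 8 of 20 (20.3% of all genes) and below 0 for 0 (4.09%), with a median of 0.23 beside 0.12 over all genes.

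The 5 of them with most read pairs rose in H3K27ac at 16 h. NEAT1, the architectural RNA of paraspeckles, had 545.1 at 0 m and 728.6 at 16 h (0.42, 0.34 to 0.50). MALAT1, an abundant RNA of nuclear speckles, had 264.5 and 448.0 (0.76, 0.65 to 0.87). SNHG1, a host gene of small nucleolar RNAs, had 121.7 and 238.0 (0.97, 0.80 to 1.13). TUG1 changed by 0.59 (0.37 to 0.81) and PCAT6, a prostate cancer associated transcript, by 0.45 (0.19 to 0.72). Once the 0.25 of all loops is taken off, the PCAT6 interval holds 0 and the others stay above it. The interval of ARLNC1 also lay above 0, that of PCA3 held 0, and those of DRAIC, SCHLAP1 and PCGEM1 lay below 0.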

How the data were processed

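H3K27ac (10 samples) and H3K4me3 (5 samples) HiChIP of LNCaP cells was used. The authors trimmed reads with Trim Galore 0.5.0, aligned them to hg19 with Bowtie2 in HiC-Pro 3.1.0, called loops with FitHiChIP in 5 kb bins on merged time points, and deposited contact per loop as signal scaled by TMM within a mark. Of these signal values 100% were whole multiples of 1 read pair (relative tolerance 1e-06). Loops were matched to starts of Gencode release 44 lifted to GRCh37, on which 0 loops ran past a chromosome end. Log2 changes compare summed contact with 0 m, with exact conditional (Clopper-Pearson) 95% intervals that cover counting error only. Intervals were tested on simulated data. Genes named are the 5 genes, up to 5 partner genes of each by read pairs and the host gene, the 3 genes most alike, and the 5 of the list with most read pairs; H19 was named after its value was seen. Windows with GC and motifs were read from GRCh37. Members, lists and motifs were chosen with earlier results of these data known. No replicate test was possible. Promoter sequences are from RefSeq (GRCh38.p14). Python 3.11.15, numpy 2.4.6, pandas 2.3.3, scipy 1.17.1 and matplotlib 3.10.9 were used. Alternatives varied scaling, windows, starts, loop length, contact, loop sets, the strongest loop and the reference time. Of the prostate marker genes checked, 2 are not reported here.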

Additional observations from a re-analysis of the deposited data

Results flagged for a closer look

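The same contrast with 0 m went in opposite directions in the 2 marks at 3 genes, with both counting intervals leaving out 0; the difference between the marks was not tested. The log2 changes of SCHLAP1, H3K27ac first and H3K4me3 second, were -1.10 and 0.38 at 30 m, -0.52 and 0.66 at 16 h, and -0.37 and 0.47 at 72 h. Those of DRAIC at 16 h were -0.29 and 0.23, and those of ARLNC1 at 4 h -0.22 and 0.36. The DRAIC value in H3K4me3 was 0.10 and the ARLNC1 value 0.14 relative to all loops, and both intervals then held 0. Loops of the lowest GC class, which holds 58 of the 73 SCHLAP1 loops, changed at 16 h by -0.54 in H3K27ac and 0.29 in H3K4me3 where they spanned 200 kb or more. From 20 to 200 kb they changed by -0.29 and 0.23, and over all lengths by 0.04 and 0.30.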

How the results depend on the processing

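Each of the 10 log2 changes at 16 h was computed again under 8 alternatives and, added after the data were seen, with 4 h as the reference time. Of 86 values, 67 stayed within the counting interval of the reported value, 16 moved out of it and 3 turned the direction of a change whose interval had left out 0. A value that stayed within could still have an interval that held 0. In H3K4me3 the interval stayed above 0 under 3 of 9 alternatives for ARLNC1 and 4 of 9 for DRAIC. For ARLNC1 in H3K27ac it did so under 7 of 9. With equal totals per table the H3K27ac values were -0.32 for PCA3, -0.53 for DRAIC, 0.20 for ARLNC1 and -0.77 for SCHLAP1. With the start of the gene record alone they were -0.88 for PCA3, -0.83 for DRAIC and -1.05 for ARLNC1, and in H3K4me3 -0.54 for PCA3, 0.82 for DRAIC and 1.04 for ARLNC1; this setting kept 2, 8 and 1 loops of these genes. With loops of at least 20 kb only, the H3K27ac values were -0.47 for DRAIC, 0.082 for ARLNC1 and -0.76 for SCHLAP1, and the H3K4me3 value of DRAIC was -0.069. DRAIC in H3K4me3 was also -0.069 with a window of 1 kb, and 0.51 with loops of a mean contact of at least 1 only. Against 4 h the values were -0.11 for DRAIC and 0.67 for ARLNC1 in H3K27ac and 0.45 for SCHLAP1 in H3K4me3. DRAIC and SCHLAP1 in H3K27ac stayed below 0, and SCHLAP1 in H3K4me3 above 0, with an interval that left out 0 under all 9 alternatives. For SCHLAP1, which has a single start, both other windows and the start of the gene record kept the same 73 loops. These settings could not move its values. PCGEM1 likewise kept its 6 loops with a window of 5 kb, the start of the gene record, or loops of at least 20 kb. PCGEM1 had no loop with a window of 1 kb and none with a mean contact of at least 1, so it has no value there. Other causes of the moves were not tested. No paired analysis was possible because the tables hold 1 value per mark and time point, and for the same reason no replicate could be left out. Depth limits PCGEM1 most, with 39 H3K27ac and 20 H3K4me3 read pairs.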
